A study of Mus musculus with 8 samples.

Results

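The 9 receptors of activins and bone morphogenetic proteins (BMPs) that are described here are Acvr1, Acvr1b, Acvr1c, Acvr2a, Acvr2b, Acvrl1, Bmpr1a, Bmpr1b and Bmpr2, taken by gene symbol from the 19938 genes measured on Affymetrix Mouse 1.0ST arrays. Each of them was represented by 1 probe set, and all 9 were measured. The RNA came from hepatic stellate cells, the vitamin A-storing pericytes of the liver sinusoid, which were sorted by retinoid autofluorescence from mouse livers on a C57BL/6J background. The knockout group (4 arrays, numbers 5 to 8) came from Mx1Cre+ mice with floxed Lhx2, and the control group (4 arrays, numbers 1 to 4) from Lhx2 floxed mice that lacked Cre. Lhx2 encodes a LIM homeobox transcription factor, and the series title names stellate cell activation after its deletion. Mice of both groups had received poly(I:C) 3 times, an RNA mimic that induces interferon and so switches on Mx1Cre, and the cells were taken 2 weeks after it. Mx1Cre acts in many cell types of the liver and blood, so a deletion within the stellate cells cannot be told apart from a deletion elsewhere, nor from an effect of the transgene, which the control group lacked. The sources used here give neither the ages of the mice nor whether each array was a separate mouse, so the p-values rest on array-to-array spread that may be technical.

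These receptors are serine/threonine kinases that work in complexes of 2 classes. A ligand dimer brings type II receptors, which are constitutively active kinases, together with type I receptors, which the type II kinase phosphorylates and which then phosphorylate Smad proteins. The BMP type I receptors ALK1 (Acvrl1), ALK2 (Acvr1), ALK3 (Bmpr1a) and ALK6 (Bmpr1b) act on Smad1, Smad5 and Smad9, and the activin-type receptors ALK4 (Acvr1b) and ALK7 (Acvr1c) act on Smad2 and Smad3. The type II receptors Acvr2a and Acvr2b serve activins, myostatin and many BMPs, and Bmpr2 serves BMPs. Stellate cells are a known liver source of BMP9 (Gdf2) and BMP10, the high-affinity ligands of ALK1.

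The values are log2 expression levels, so a difference of 1 is a doubling. The array medians lay between 7.42 and 7.47. The genes of 1190 smell and pheromone receptors (Olfr, Vmn1r and Vmn2r symbols), taken as silent in stellate cells, had a median of 5.40 and a 95th percentile of 6.77 and served as a rough guide to unexpressed levels, since no detection calls were used. Lhx2 had levels of 11.09, 11.24, 11.35 and 11.49 in the knockout arrays, against 12.07, 11.88, 11.94 and 11.92 in the control arrays. All 4 knockout arrays were lower, with a difference of -0.66 (SE 0.09, limma adjusted p = 0.00136, exact two-sided permutation p = 0.0286). The position of its probes relative to the floxed part is not given, so the level need not measure the deletion. Stellate cell markers such as Lrat, the retinol esterifying enzyme (13.75 in knockout and 13.65 in control), and Pdgfrb, the PDGF receptor of mesenchymal cells (13.29 in knockout and 13.32 in control), were near the top of the value range. Among markers of other cells, the mean of 12 sinusoidal endothelial genes ran from 8.46 to 9.81 in the knockout and from 8.48 to 11.12 in the control arrays. The mean of 13 hepatocyte genes ran from 9.38 to 10.83 in the knockout and from 8.97 to 10.99 in the control arrays. Of the 7 leukocyte and 5 cholangiocyte genes, 5 and 3 had mean levels under the guide.

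Of the 9 receptors, 3 fell in the knockout, 0 rose and 6 did not pass the test at an adjusted p under 0.05. The 3 were Acvr2a, with 61.0% of the control level left, Acvr1, with 83.2%, and Acvr1c, whose measured share of 28.1% is uncertain because its knockout level lay under the guide for unexpressed genes. Over all genes tested, 7.38% passed in either direction and 3.63% fell. The groups did not overlap for the same 3 receptors, and for 12.7% of all genes (6.32% with the knockout arrays lower). At an unadjusted p under 0.05 in limma, the same 3 were lower and 1 receptor, Acvrl1, was higher, and over all genes 8.57% were lower and 8.91% higher. The median change of the 9 receptors was -0.01 on the log2 scale and that of all genes -0.02. Mean levels of 3 marker lists did not overlap between the groups either. The mean of 8 smooth muscle markers ran from 9.894 to 10.003 in the knockout and from 10.049 to 10.119 in the control arrays, with 3 fallen (Kcnj8, Rgs5 and Smtn). Rgs5 (12.70 in knockout and 13.22 in control) and Kcnj8 (12.59 in knockout and 12.98 in control) stood near the levels of stellate cell markers. Whether their falls came from stellate cells or from other cells was not tested. The other smooth muscle markers, Myh11 (-0.01) among them, did not pass, with log2 changes from -0.08 (Actg2) to 0.12 (Mylk). The mean of the portal fibroblast markers ran from 8.47 to 8.67 in the knockout and from 7.82 to 7.97 in the control arrays. Of the 10, 4 had risen on the log2 scale (Cd34 by 3.08, Dpt by 2.28, Eln by 0.81 and Mfap4 by 0.39). The other portal fibroblast markers, Thy1 (-0.10) and Gli1 (-0.01) among them, did not pass. Their log2 changes ran from -0.29 (Entpd2) to 0.27 (Fbln2). The mean of 13 stellate cell markers, a list that holds the deleted gene Lhx2 itself, ran from 12.42 to 12.53 in the knockout arrays. It ran from 12.74 to 12.84 in the control arrays, with 5 markers fallen (Lhx2, Gfap, Nes, Hgf and Reln). Gfap (-1.48) and Nes (-1.31) had the largest falls. The other stellate cell markers did not pass, with log2 changes from -0.23 (Ngfr) to 0.16 (Cygb). The mean of 10 Kupffer cell and macrophage markers ran from 7.38 to 7.86 in the knockout and from 7.43 to 8.32 in the control arrays. Cd68 had fallen by 0.61 on the log2 scale (limma adjusted p = 0.0278). The other markers of that list did not pass and went in both directions, from -1.24 (Vsig4) to 0.30 (Lyz2) on the log2 scale. The part of these lists in the receptor levels was not tested. With the mean of the endothelial markers as a covariate, Acvr1c, Acvr2a and Acvr1 differed by -1.86, -0.70 and -0.26, and all 3 passed (limma adjusted p up to 0.0281). Without control 1, highest of the 8 arrays in hepatocyte markers, and control 4, highest in endothelial markers, Acvr1 no longer passed (-0.26, limma adjusted p = 0.0850). In sorted bulk samples, fewer cells that express a receptor and less RNA per cell cannot be told apart.

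**Figure D1:**
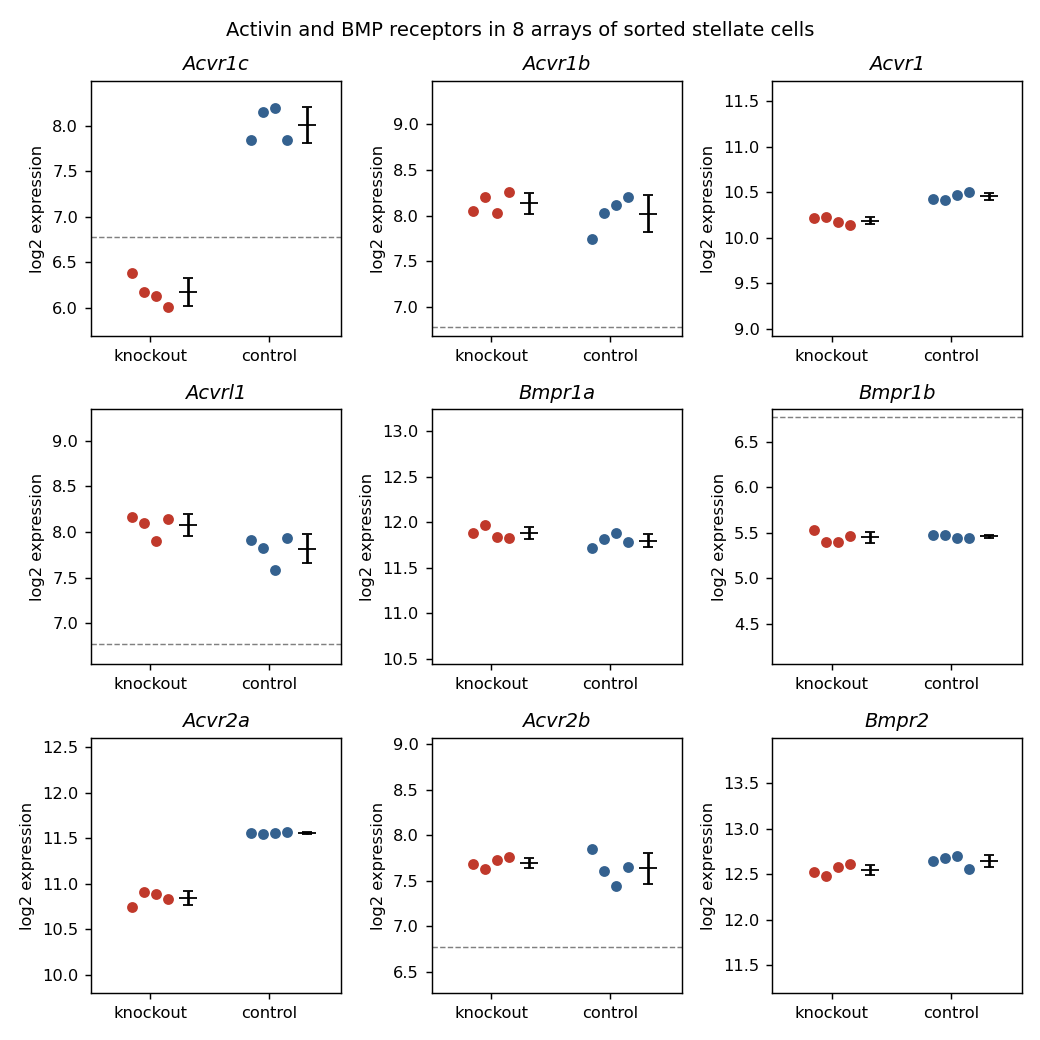
Log2 expression of each receptor in the 4 knockout arrays (red, left) and the 4 control arrays (blue, right), with the mean and SD of each group in black. Every panel spans the same log2 range, and the dashed line, where it falls inside a panel, is the 95th percentile of 6.77 of the unexpressed guide genes. Acvr1c, Acvr2a and Acvr1 are lower in all knockout arrays than in any control array, and Bmpr1b lies below the dashed line in all 8 arrays.

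Among the activin-type receptors, Acvr1c fell and its close relative Acvr1b did not pass the test. Acvr1c encodes ALK7, a type I receptor for activin B, GDF3 and Nodal best known from fat tissue and pancreatic islets. It had log2 levels of 6.38, 6.17, 6.13 and 6.01 in the knockout arrays, against 7.84, 8.15, 8.20 and 7.84 in the control arrays. All 4 knockout values lay under the 95th percentile of the guide genes and all 4 control values above it. The difference was -1.83 (SE 0.11, 95% confidence interval -2.08 to -1.59, limma adjusted p = 8.47e-06), the 15th largest fall of all genes tested. Since RMA compresses differences of dim probe sets, the size of a fall to such a level is uncertain. Acvr1b encodes ALK4, the main type I receptor of activin A. Its levels were 8.04, 8.21, 8.03 and 8.25 in the knockout arrays, against 7.74, 8.03, 8.11 and 8.20 in the control arrays. The groups overlapped, and the difference of 0.11 had a confidence interval of -0.12 to 0.34 (limma adjusted p = 0.711). The changes of the 2 genes themselves differed. The level of Acvr1c minus that of Acvr1b, taken within each array, averaged -1.96 ± 0.24 in the knockout and -0.02 ± 0.23 in the control arrays (SD, n = 4 each), a difference of -1.94 (exact two-sided permutation p = 0.0286, the smallest that 4 arrays against 4 allow, and 0.0381 adjusted over the 4 receptor pairs compared).

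Among the type II receptors, Acvr2a fell while Acvr2b and Bmpr2 did not pass. Acvr2a had levels of 10.74, 10.91, 10.89 and 10.83 in the knockout arrays, against 11.55, 11.55, 11.56 and 11.57 in the control arrays. The control arrays lay within a very narrow range (SD 0.0074), and each knockout array was lower than all of them. The difference was -0.71 (SE 0.05, confidence interval -0.83 to -0.60, limma adjusted p = 3.14e-05), at a level well above the guide. Acvr2b, the other activin type II receptor, had levels of 7.69, 7.63, 7.72 and 7.76 in the knockout arrays, against 7.85, 7.61, 7.44 and 7.65 in the control arrays. Its knockout values lay inside the control range, with a difference of 0.06 (confidence interval -0.13 to 0.25, limma adjusted p = 0.837). The change of Acvr2a differed from that of Acvr2b by -0.77 (exact permutation p = 0.0286, adjusted over the 4 pairs 0.0381). Bmpr2, the type II receptor of BMPs, in which inherited mutations cause pulmonary arterial hypertension in humans, had levels of 12.52, 12.48, 12.58 and 12.61 in the knockout arrays, against 12.65, 12.68, 12.69 and 12.56 in the control arrays. The groups overlapped through control 4, and the difference of -0.10 had a confidence interval of -0.22 to 0.02 (limma adjusted p = 0.448).

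**Figure D2:**
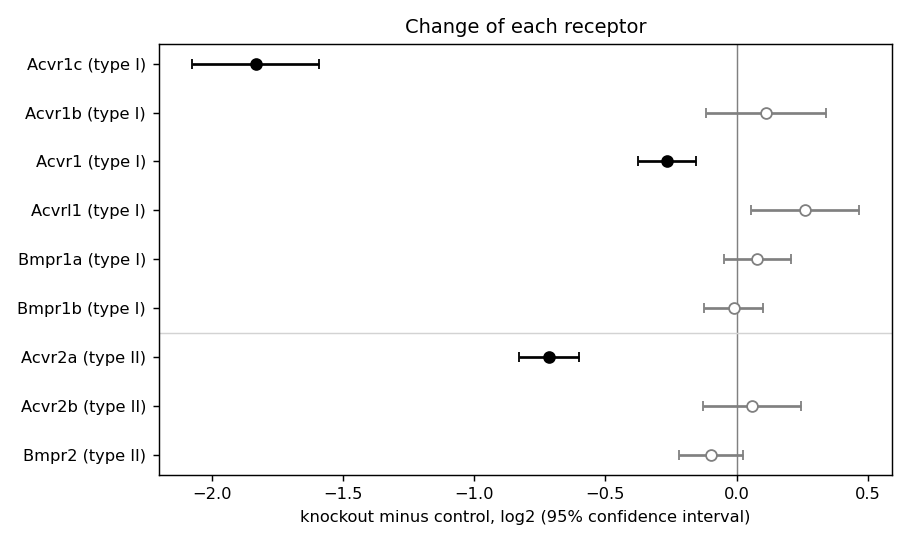
Knockout minus control on the log2 scale for each receptor, with the 95% confidence interval of the limma fit, type I receptors above the grey line and type II receptors below it. Filled points passed an adjusted p under 0.05. Acvr1c (-1.83), Acvr2a (-0.71) and Acvr1 (-0.27) are filled, and the intervals of Acvr1b, Bmpr1a, Bmpr1b, Acvr2b and Bmpr2 include 0.

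Of the 4 BMP type I receptors, Acvr1 fell by a small amount and the other 3 did not pass. Acvr1 encodes ALK2, whose activating mutations cause fibrodysplasia ossificans progressiva in humans. Its levels were 10.21, 10.23, 10.17 and 10.14 in the knockout arrays, against 10.42, 10.42, 10.47 and 10.50 in the control arrays. The arrays of each group lay close together (SD 0.04 in both), and the groups did not overlap. The difference was -0.27 (SE 0.05, confidence interval -0.37 to -0.16, limma adjusted p = 0.00911). Bmpr1a encodes ALK3, the broadly expressed BMP receptor that hepatocytes use for hepcidin control. It had levels of 11.89, 11.97, 11.84 and 11.82 in the knockout arrays, against 11.72, 11.82, 11.88 and 11.78 in the control arrays. The groups overlapped, and the difference of 0.08 had a confidence interval of -0.05 to 0.21 (limma adjusted p = 0.600). Bmpr1b encodes ALK6, a receptor known from cartilage and ovary. All of its 8 values lay between 5.39 and 5.53, close to the median of the guide genes, so no expression above that guide was seen in either group. Its means were 5.45 ± 0.07 in the knockout and 5.46 ± 0.02 in the control group (SD, n = 4 each, difference -0.01, limma adjusted p = 0.959). The pair Bmpr1a and Bmpr1b had changes that differed by 0.09 (exact permutation p = 0.171, also 0.171 adjusted over the 4 pairs), which at the level of Bmpr1b says little about that receptor.

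Acvrl1, which encodes ALK1, the endothelial receptor of BMP9 and BMP10, was the receptor with the highest positive difference, and it did not pass after adjustment. Its levels were 8.17, 8.09, 7.90 and 8.14 in the knockout arrays, against 7.92, 7.83, 7.58 and 7.93 in the control arrays. Knockout 7 lay within the control range and the other 3 knockout arrays above it. The difference was 0.26 (SE 0.09, confidence interval 0.06 to 0.47, unadjusted p = 0.0180 and adjusted p = 0.150 in limma). With the endothelial marker mean as a covariate the difference was 0.27 (limma adjusted p = 0.200). Of the 12 endothelial markers, 1 fell, Clec4g, a lectin of sinusoidal endothelium, and the others did not pass. The differences of all 12 were negative, from -1.23 (Clec4g) to -0.32 (Cdh5) on the log2 scale. Eng, the co-receptor endoglin, had means of 13.56 ± 0.08 in the knockout and 13.50 ± 0.03 in the control group (SD, n = 4 each). The change of Acvr1 differed from that of Acvrl1 by -0.53 (exact permutation p = 0.0286, adjusted over the 4 pairs 0.0381).

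Likeness to Acvr1c was measured by root mean square distance over the 8 arrays, after each gene's control mean was subtracted. Genes with Gm, Rik, LOC or accession-type symbols were skipped. The 3 nearest of the other genes were Grin2b, an NMDA-type glutamate receptor subunit, C6, a terminal complement component, and Rab27b, a GTPase of vesicle secretion. Their distances were 0.17, 0.16 and 0.18 on the log2 scale. Grin2b had 7.05, 7.14, 6.95 and 7.02 in the knockout arrays, against 8.57, 8.89, 8.74 and 8.54 in the control arrays. C6 fell by 1.74 and Rab27b by 1.69 on the log2 scale. Grin2b fell by 1.65. Falls near the size of that of Acvr1c follow from the way these genes were chosen. The measure was computed only for Acvr1c, the 1 receptor that passed with a change of at least 1.

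The receptor genes that fell all lie on chromosome 2 of the RefSeq table (GRCm38.p6), as does Lhx2, and Acvr1c and Acvr1 are next to each other among the measured genes. The windows of 250 bases before the annotated starts of these 3 genes are shown because they are the receptors that fell, and Acvr1c has 2 annotated starts. Sequences are from RefSeq (GRCm38.p6) and run 5′ to 3′ along the gene. All 4 windows lie on chromosome 2, with Acvr1c at chr2:58357759-58358008 (minus strand) for the upstream start and chr2:58324808-58325057 (minus strand) for the downstream one, Acvr2a at chr2:48813859-48814108 (plus strand) and Acvr1 at chr2:58566829-58567078 (minus strand). Capitals mark GC boxes, GGGCGG or its reverse complement CCGCCC.
Acvr1c, upstream start: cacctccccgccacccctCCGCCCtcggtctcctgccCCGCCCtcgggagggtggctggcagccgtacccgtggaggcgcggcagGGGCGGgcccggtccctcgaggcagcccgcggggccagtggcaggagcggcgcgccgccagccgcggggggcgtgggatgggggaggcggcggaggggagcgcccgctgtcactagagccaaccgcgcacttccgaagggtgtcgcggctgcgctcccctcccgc
Acvr1c, downstream start: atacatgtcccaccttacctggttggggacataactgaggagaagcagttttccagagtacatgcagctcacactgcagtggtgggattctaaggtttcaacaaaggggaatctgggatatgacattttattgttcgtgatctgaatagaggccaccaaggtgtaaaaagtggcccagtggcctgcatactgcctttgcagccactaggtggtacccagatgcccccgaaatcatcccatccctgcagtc
Acvr2a: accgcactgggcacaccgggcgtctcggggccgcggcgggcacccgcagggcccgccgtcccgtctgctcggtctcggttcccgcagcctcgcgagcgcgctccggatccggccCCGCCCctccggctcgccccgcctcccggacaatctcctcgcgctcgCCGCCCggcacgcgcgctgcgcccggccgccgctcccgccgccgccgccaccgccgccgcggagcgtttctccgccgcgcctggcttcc
Acvr1: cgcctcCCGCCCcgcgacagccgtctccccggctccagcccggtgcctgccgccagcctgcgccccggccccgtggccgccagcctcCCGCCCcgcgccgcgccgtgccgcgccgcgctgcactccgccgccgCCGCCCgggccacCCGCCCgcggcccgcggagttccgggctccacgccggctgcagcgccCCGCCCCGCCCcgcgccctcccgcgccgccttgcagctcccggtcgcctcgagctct

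The upstream window of Acvr1c held 32 CpG dinucleotides and 3 GC boxes at a GC content of 79.6%, against 2 CpG, 0 GC boxes and 49.6% in its downstream window. Acvr2a had 49 CpG and 2 GC boxes, and Acvr1 had 46 CpG and 6 GC boxes. Over all 32851 windows of the table the median was 6 CpG and 32.7% held a GC box on either strand. Receptors that did not pass had CpG-rich windows as well, with 42 CpG at Acvr1b, 36 at Bmpr1a, 24 at Acvr2b and 22 at Bmpr2, while the 3 windows of Bmpr1b had 5, 5 and 1. A GC box was found in 7 of the 11 windows of the 8 receptors matched. Acvrl1 was not matched. The letters TAATTA, the core of LIM homeodomain sites, were in 0 of the 11 windows and in 4.84% of all windows. At that share, 0 of 11 says little. The GC content of the 11 windows ran from 46.8% to 85.6%, against a median of 52.4% over all windows, and motif counts depend on it. The GC-rich Smad element GGCGCC was in 2 of the 11, at Bmpr1a and Bmpr2, and in 9.59% of all. Motifs were searched on both strands, and matches of different motifs could overlap. The array does not tell which start was used, and a match in a window is a description of its letters.

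Around the receptors, 91 other genes of the pathway were measured in 6 lists, of which 9 rose, 10 fell and 72 did not pass, at 3.76% risen and 3.63% fallen over all genes. The ligands moved in both directions. Of 26 measured BMP, GDF and activin ligands, 5 rose, 3 fell and 18 did not pass, with a median change of -0.05. The ALK1 ligands were among the fallen. Bmp10 had 8.80, 9.28, 9.58 and 8.88 in the knockout arrays, against 12.70, 12.75, 12.73 and 12.65 in the control arrays, and Gdf2 fell by 2.06 on the log2 scale. Bmp5 fell by 0.36. The risen ligands were Bmp6 (1.22), Bmp4 (0.69), Gdf6 (0.63), Inhba, the activin A subunit (0.61), and Gdf11 (0.44), each given as its log2 change. Gdf6 no longer passed without controls 1 and 4 (0.53, limma adjusted p = 0.145). Bmp6, a ligand of liver endothelium in iron control, had 10.16, 10.18, 10.20 and 10.28 in the knockout arrays, against 8.15, 9.42, 8.64 and 9.72 in the control arrays. Its control values stood in the same order as the endothelial marker means of those arrays (8.48, 10.65, 9.45 and 11.12), while the knockout arrays had endothelial means of 8.46, 9.41, 9.16 and 9.81. With the endothelial mean as a covariate, Bmp6 differed by 1.58 (limma adjusted p = 0.000179). Its call was lost without control 3 or any 1 of the knockout arrays (limma adjusted p up to 0.0889).

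**Figure D3:**
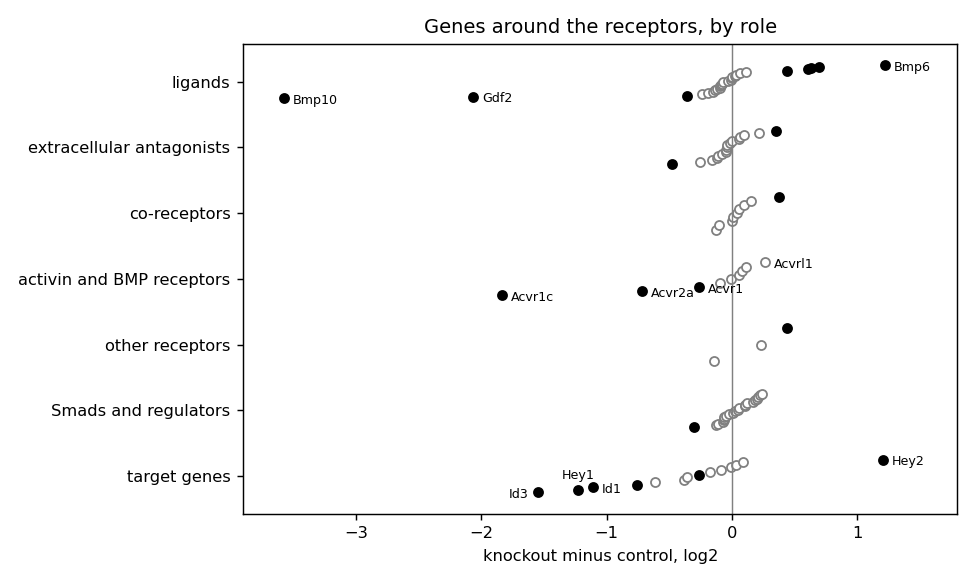
Knockout minus control on the log2 scale for each measured gene of the pathway, by role, with filled points for an adjusted p under 0.05 and open points for the rest. Names stand beside changes of at least 1 and beside receptors past 0.25. Filled points lie on both sides of 0 among the ligands, and those of the activin and BMP receptors only at negative values.

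Of the other lists, 33.3% of the other receptors, 11.1% of the co-receptors, 11.8% of the antagonists and 4.5% of the Smads and regulators passed in either direction, against 7.38% of all genes. Of 3 other receptors of the superfamily, Tgfbr1, the type I receptor of TGF-beta, rose by 0.44 (10.85, 10.78, 10.72 and 10.63 in knockout arrays, against 10.06, 10.44, 10.25 and 10.50 in control arrays). Its call was lost without control 3, knockout 5, knockout 6 or knockout 7 (limma adjusted p up to 0.0785). Of 9 co-receptors and membrane modulators, 1 rose, Rgma, a BMP co-receptor (0.38), and its call was lost when any array except control 1 and knockout 6 was left out (limma adjusted p up to 0.116). Of 17 extracellular antagonists, Twsg1, a chordin and BMP binding protein, rose by 0.36, and Nbl1, a DAN-family BMP antagonist, fell by 0.48, with the fall of Nbl1 lost without knockout 6 (limma adjusted p = 0.0649). Of 22 Smads and receptor-proximal regulators, Smad1, which the BMP type I receptors phosphorylate, fell by 0.31, and 0 rose in limma, where 6 were higher at an unadjusted p under 0.05 (8.91% of all genes were). The fall of Smad1 was lost without control 4, knockout 5 or knockout 6 (limma adjusted p up to 0.0628). Without controls 1 and 4 together, Tgfbr1, Rgma, Twsg1 and Smad1 no longer passed (limma adjusted p from 0.0544 to 0.146). Over the 6 lists together, 6 fell without knockout 6, against 10 with all arrays, and 5 rose without controls 1 and 4, against 9 with all arrays.

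Of 14 target genes measured, 5 fell, 1 rose and 8 did not pass (42.9% passed, against 7.38% of all genes), with a median change of -0.31. Id3, an inhibitor of helix-loop-helix factors induced by BMP-activated Smads, had 10.47, 10.05, 10.42 and 10.70 in the knockout arrays, against 11.78, 11.92, 12.00 and 12.14 in the control arrays. Id1, its relative, had 8.75, 8.64, 8.43 and 8.64 in the knockout arrays, against 9.38, 9.42, 9.73 and 10.36 in the control arrays, of which control 4 was the highest. All knockout arrays lay below all control arrays for both. The other fallen members were Hey1, a Notch and BMP target (-1.23), Id4 (-0.76) and Pmepa1, an inhibitor of activin-type Smads (-0.26), and Hey2 rose by 1.21. The falls of Id4 and of Pmepa1 were each lost without any of 6 arrays in turn (limma adjusted p up to 0.126 and 0.0920). Without control 2, knockout 5 or knockout 6, and without controls 1 and 4 together, 3 targets fell instead of 5.

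**Figure D4:**
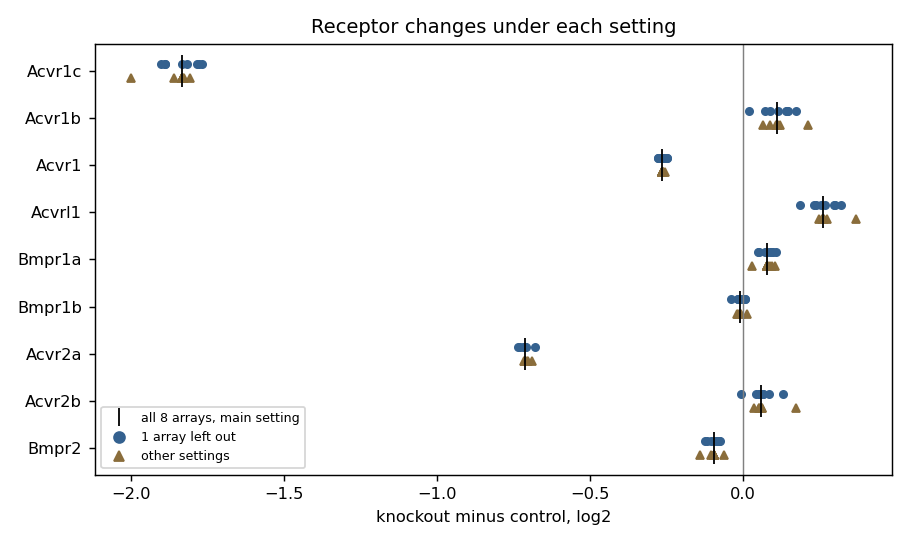
Knockout minus control on the log2 scale for each receptor under the main setting (black bar), with 1 array left out (blue circles) and under the other settings (brown triangles). Acvr1c stays between -2.0 and -1.77, Acvr2a between -0.74 and -0.68 and Acvr1 between -0.28 and -0.25, while points of Acvr2b and Bmpr1b fall on both sides of 0.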

How the data were processed

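The deposited table held log2 expression per probe set in each array, which the authors had normalized with the Robust Multichip Algorithm (RMA), per the labels' protocols. RMA subtracts background, equalises the distributions of the arrays and combines the probes of a set, and it understates differences between dim signals. The sources used here name no RMA version, genome build or batch, and the number of arrays limits the precision.

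Of 35556 probe sets, 21789 had 1 gene symbol in the platform annotation, 1621 several and 12146 none. The probe set with the highest mean stood for each gene, which gave 19938 genes. Symbols matched RefSeq by gene identifier for 21698 probe sets. Knockout minus control was fitted across all genes by limma 3.58.1 (lmFit, eBayes, R version 4.3.3) as a two-sided test, and p-values were adjusted by the Benjamini-Hochberg method over all of them. Receptor pairs and Lhx2 had exact permutation tests over 70 assignments of the arrays. Named genes were the 9 receptors, Lhx2, up to 4 called genes of each pathway list and the 3 genes most like a receptor changed by at least 1. Genes with Gm, Rik, LOC or accession-type symbols were skipped in the choice of these 3. Bmp5, Gdf6, Inhba, Gdf11, Id4, Pmepa1, Eng and all named markers and neighbours were chosen after their values were seen. The members and lists were chosen with earlier results of these data known. The fit was tested on simulated data. The 21 alternatives covered normalization, filters, variance model, weights, probe set choice, marker covariates, thresholds and arrays left out.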

Additional observations from a re-analysis of the deposited data

Results flagged for a closer look

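Single arrays stood apart from the other 3 of their group in 2 of the 64 gene groups checked for the named genes, where chance alone is expected to mark about 1 group in 20 (Dixon's test). For Gdf6, knockout 5 had a log2 level of 10.34, and the other knockout arrays had 10.81 to 10.86. For Id4, knockout 7 had 7.38, and the other knockout arrays had 7.78 to 7.87. No receptor and no Lhx2 value stood apart in this way.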

How the results depend on the processing

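For the receptors, Lhx2, the receptor pairs and the counts over all lists or genes, 383 values were recomputed under the 21 alternatives. Of these, 369 kept their side of the threshold (counts within 1.5 times), and 0 called values turned round. Among receptors that did not pass, Acvr2b (down to -0.006) and Bmpr1b (up to 0.011) changed sign in some settings. The 12 counts of the single pathway lists are not among the 383 values. Of their 252 values, 46 moved by over 1.5 times (co-receptors risen under 12 of the 21 alternatives, other receptors risen under 10, antagonists fallen under 7, Smads and regulators fallen under 6, targets fallen under 5). Acvr1c, Acvr2a and Lhx2 kept their calls under all 21, with adjusted p up to 0.000107, 0.00183 and 0.0252. Acvr1 lost its call without controls 1 and 4 (-0.26, adjusted p = 0.0850, with fewer arrays) and at a threshold of 1.5-fold (-0.27), so that 2 receptors fell there instead of 3. Without controls 1 and 4, 371 genes rose and 405 fell, with 5 risen in the pathway lists. At an adjusted p under 0.01, 386 rose and 389 fell (4 and 6 in the pathway lists), and at 1.5-fold 284 rose and 239 fell (5 and 6 in the pathway lists). With 1 array left out, 502 to 790 genes rose and 487 to 677 fell, and in the pathway lists 6 to 10 rose and 6 to 10 fell. The other settings changed no call of a receptor. Differences of receptor pairs kept their sign throughout. The exact tests of the pairs kept their side of the threshold with any 1 array left out, and without controls 1 and 4 they cannot go below 0.05, so only values were compared there. Bmpr1b had no value under the stricter filter on dim genes, which removed it. No paired analysis was possible because the groups share no replicate numbers (1 to 4 and 5 to 8).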

Other observations

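The measured neighbours of the fallen receptors on chromosome 2 were listed after the receptor values were seen, with 3 measured genes on each side in RefSeq order. Of 12 neighbours of Acvr1c, Acvr1 and Acvr2a that are not receptors themselves, 0 passed the limma test after adjustment, against 7.38% of all genes. At an unadjusted p under 0.05 in limma there were 2, Pkp4 (lower) and Epc2 (higher), against 8.57% of all genes lower and 8.91% higher. The log2 changes of the 12 ran from -0.18 to 0.16. Of these 12, 5 had means under the guide for unexpressed genes in both groups, where a fall could hardly be seen. The 5 were Galnt5, Ermn, Cytip, Upp2 and Ccdc148, all near Acvr1c and Acvr1. Pkp4 was the only other neighbour listed there, so the count of 0 says little about that place. Near Acvr2a, Zeb2, a Smad-binding repressor, had means of 12.87 ± 0.07 in the knockout and 12.95 ± 0.02 in the control group (SD, n = 4 each), and Orc4, a subunit of the origin recognition complex, 9.22 ± 0.09 in the knockout and 9.18 ± 0.16 in the control group (SD, n = 4 each). Next to Acvr1c, Cytip, a cytohesin-binding protein of leukocytes, had 5.52 in the knockout and 5.56 in the control group. Pkp4, a plakophilin of cell junctions near Acvr1, had 9.69 ± 0.02 in the knockout and 9.87 ± 0.11 in the control group (limma adjusted p = 0.137). On the whole of chromosome 2, 62 of 1737 measured genes fell (3.57%), against 3.63% of all genes.

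Bmpr1b, which stayed at the unexpressed level, has Pdlim5, a PDZ and LIM domain protein of actin filaments, as the next measured gene on one side and Unc5c, a netrin receptor, on the other, on chromosome 3. Pdlim5 fell by 0.68 on the log2 scale (SE 0.06, limma adjusted p = 9.98e-05), and Unc5c had 6.65 in the knockout and 6.70 in the control group (limma adjusted p = 0.862). Over all 9 receptors, 2 of 42 such neighbours passed (4.76%, against 7.38% of all genes), and the other was Gbp7, an interferon-induced GTPase near Bmpr1b, which fell by 0.40 (limma adjusted p = 0.0350).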
